A study of Danio rerio with 11 samples.

Results

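Livers of zebrafish larvae that lack a working ahcy gene were compared with livers of wild-type larvae at 4 days after fertilisation. The mutant group held 3 arrays (ahcy -/-, numbered 3, 4 and 6) and the control group 4 arrays (ahcy +/+, numbered 1, 2, 4 and 8), chosen by these labels as 7 of the 11 arrays of the series. The other 4 came from wild-type larvae given 1 mM azacytidine, a cytidine analogue that blocks DNA methyltransferases. All 3 groups were injected into the yolk at 2 days, the mutants and controls with vehicle alone. The labels give a genotype and no allele, strain, sex or number of larvae per array, and they do not say whether arrays came from separate clutches, so the p-values reflect the spread among these arrays, which may be technical. The loss of ahcy applies to the whole larva and not to the liver alone.

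The ahcy gene encodes S-adenosylhomocysteine hydrolase, which removes the by-product of every S-adenosylmethionine-dependent methylation. When the by-product builds up it inhibits methyltransferases acting on DNA, RNA, proteins and small molecules. The hepatocyte, the main cell of the liver, secretes most plasma proteins and carries out gluconeogenesis, fatty acid oxidation, amino acid breakdown, bile acid synthesis and the chemical modification of foreign compounds. In zebrafish the liver takes up these roles during the first days of larval life, while the yolk is still the source of nutrients.

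Each value is a deposited log2 expression level, so a difference of 1 is a 2-fold difference in signal. Differences are mutant minus control with their standard error, and a gene is called higher or lower where limma's adjusted p was under 0.05. A gene that was not called is described as within 2-fold where the 95% interval of its difference lay inside 1 log2 unit on either side of 0, and as unresolved where that interval was wider. Values per array run in the order mutants 3, 4 and 6 and controls 1, 2, 4 and 8. Each probe set has its own brightness, so levels of different genes are not compared as amounts of RNA; where genes are grouped by control level, or called dim or bright, this describes the probe set's signal on the array.

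The median log2 level of an array was 6.13 to 6.17 in mutants and 5.97 to 6.14 in controls. The dissections held more than liver. Among 50 skeletal muscle markers the mean level was 8.79, 8.91 and 9.25 in mutants, against 7.29, 7.80, 8.06 and 8.15 in controls, and among 45 epidermal markers it was 8.29, 8.76 and 9.43 in mutants, against 7.22, 7.15, 7.44 and 7.60 in controls. Control 2 had the highest mean over 18 exocrine pancreas markers, at 9.83, and control 4 the highest over 47 neural markers, at 8.12. Neither tissue was confined to that array. The pancreas mean was 6.61 in control 1, higher still in control 8 and 5.49 in control 4, against 5.03 to 6.08 in mutants. The neural mean was 7.15 in control 8 and at least 6.72 in every mutant, against 5.92 in control 1 and 5.56 in control 2. For an array control for muscle actin the 3' minus 5' log2 difference was 5.59 to 6.21 in mutants and 3.16 to 4.92 in controls, while the 3' minus middle difference of the gapdh control overlapped, at 3.22 to 4.53 in mutants and 2.71 to 4.36 in controls. The part of these differences in the results below was not tested, except as a covariate described with the other tissues. In bulk samples, fewer hepatocytes and less RNA per hepatocyte cannot be told apart.

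The labelled tissue was borne out by the 19 hepatocyte markers, whose mean was 9.55 to 10.57 in mutants and 11.40 to 11.70 in controls. Not every marker was bright: ahsg1 was at 4.63 to 5.23 in mutants. Of the 19 markers 11 were lower, 5 were within 2-fold and 3 were unresolved. The liver fatty acid binding protein gene fabp10a, the marker most used for zebrafish hepatocytes, stood at 11.66, 10.25 and 8.60 in mutants, against 13.53, 13.31, 13.37 and 13.38 in controls. Its log2 difference was -3.23 ± 0.49 (adjusted p = 0.0016), and the mutant arrays were far apart where the controls lay close together. Transferrin, tfa, stood at 12.91, 13.04 and 12.61 in mutants, against 13.33, 13.36, 13.45 and 13.46 in controls, and fell by 0.55 ± 0.10. The fall of fabp10a was the larger of the pair on the same arrays; the difference between them was not tested.

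The targeted gene was lower. The log2 level of ahcy was 12.11, 11.47 and 11.50 in mutants, against 12.45, 12.30, 12.36 and 12.47 in controls, a difference of -0.70 ± 0.16 (adjusted p = 0.017), with no overlap between the groups. Mutant and control ranges did not overlap for 1899 of all 7792 named genes (24.4%). The ahcy call was lost without mutant 4 (adjusted p = 0.0725) and without mutant 6 (adjusted p = 0.076). The labels do not say what the mutation does to the transcript. Of the related genes ahcyl1 and ahcyl2b, which encode proteins similar to the enzyme, ahcyl1 was unresolved (0.22 ± 0.42, interval -0.70 to 1.14) and ahcyl2b was within 2-fold (0.02 ± 0.29).

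Across the array, 797 probe sets were higher and 750 lower in mutants, or 6.23% and 5.87% of 12784, together 12.1%. With each array centred on its median the split was 618 higher and 890 lower. Taking the brightest probe set for each of 7792 named genes, 6.48% were called higher, 7.17% lower, 46.8% were within 2-fold and 39.6% were unresolved. Leaving out mutant 6 brought the probe set counts to 329 higher and 427 lower, and leaving out mutant 4 brought the number higher to 435; without control 1 it was 434 and without control 2 it was 452. The median difference over all named genes was 0.04.

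The 25 lists of hepatic function, merged, held 504 genes, of which 166 (32.9%) were called lower, 17 were called higher (5 without mutant 4, 7 without mutant 6, 8 without control 1), 128 (25.4%) were within 2-fold and 193 were unresolved, with a median difference of -0.49. Of the 140 named genes called lower by more than 2 log2 units, 70 stood in these lists, which hold 504 of all 7792 named genes. Of the 115 higher by more than 2 log2 units, 6 stood in them. The share called lower was 7.58% of the 132 hepatic genes whose control level lay under 6.04, the middle of the control arrays, 39.4% of the 99 between 8 and 10, and 72.1% of the 43 at 12 or above. Over all named genes in the same ranges of control level, 1.38%, 15.4% and 27% were called lower. Of the 128 hepatic genes within 2-fold, 61 had a control signal under the middle of the control arrays.

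**Figure D1:**
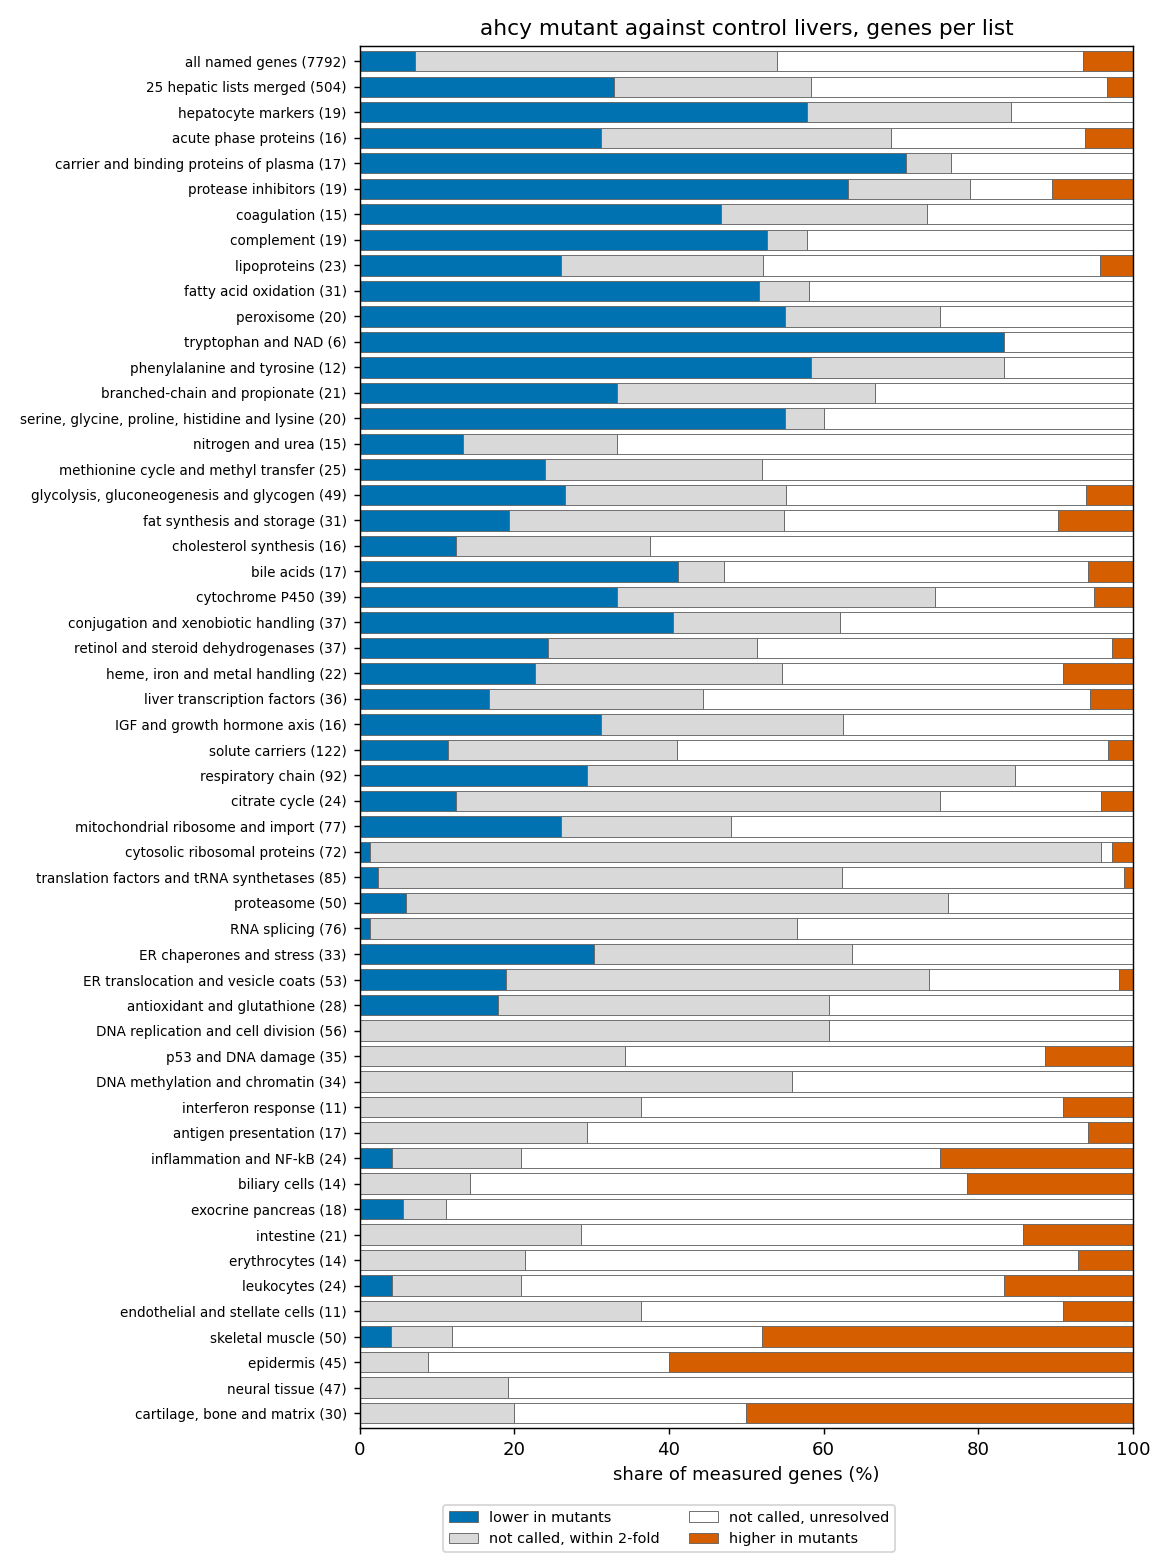
Share of measured genes in each list that were called lower (blue), not called and within 2-fold (light grey), unresolved (white) and called higher (orange) in mutants against controls, with all named genes in the top row; the number of genes stands beside each list. Among plasma carriers 12 of 17 were lower, whereas 68 of 72 cytosolic ribosomal proteins lay within 2-fold.

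Of 17 carrier and binding proteins of plasma 12 were lower, 1 was within 2-fold and 4 were unresolved. The fetuin gene ahsg1, whose product is a plasma glycoprotein that keeps calcium phosphate soluble, had levels of 4.69, 5.23 and 4.63 in mutants, against 8.61, 8.62, 9.22 and 9.92 in controls. That is a difference of -4.24 ± 0.33, or 18.9-fold (adjusted p = 2.5e-05), and its relative fetub fell by 2.81 ± 0.40. Haptoglobin, hp, which binds free haemoglobin, was at 10.62, 10.84 and 9.78 in mutants, against 12.27, 12.12, 11.97 and 12.10 in controls. Both ahsg1 and hp stood below the whole control range on every mutant array, as did 1003 of all 7792 named genes. The member within 2-fold was rbp4, the plasma carrier of retinol, at 12.02, 12.98 and 13.22 in mutants, against 12.73, 13.06, 13.08 and 13.33 in controls (difference -0.31 ± 0.23). Mutant 6, which had the lowest levels of fabp10a, ahsg1 and hp, had the highest rbp4 of the 3 mutants. It also had the highest mean of the epidermal markers, at 9.43, against 8.29 and 8.76 in mutants 3 and 4. With the muscle, epidermal and neural covariate described below, the rbp4 difference was -0.88. The part of other tissues in the rbp4 level was not tested further.

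Of 16 acute phase genes 5 were lower, 1 was higher and 6 were within 2-fold. The C-reactive protein gene crp, a pentraxin of innate defence, had the largest fall of any named gene, with levels of 5.65, 6.27 and 6.24 in mutants, against 11.74, 11.96, 12.34 and 12.51 in controls. Its paralog crp3 stood at 6.90, 6.43 and 8.57 in mutants, against 12.46, 12.13, 11.98 and 11.89 in controls. Serum amyloid A, saa, another classical acute phase gene, was dim in both groups, at 4.19 to 4.69 in mutants and 4.18 to 4.55 in controls. The gene called higher was socs3a, a feedback inhibitor of cytokine signalling, with 7.94, 9.85 and 8.64 in mutants, against 5.25, 6.38, 6.72 and 6.22 in controls. Its call (difference 2.67 ± 0.66, adjusted p = 0.021) was lost without mutant 4 (adjusted p = 0.0915), mutant 6 (adjusted p = 0.0627) or control 1 (adjusted p = 0.0592).

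Of 19 protease inhibitors 12 were lower, 2 higher and 3 within 2-fold. Alpha-2-macroglobulin proteins trap proteases of many kinds in plasma, and a2m2f stood at 4.61, 5.21 and 4.55 in mutants, against 10.08, 8.90, 9.47 and 10.36 in controls. A second member of the family, a2m2h, was at 10.42, 9.71 and 8.75 in mutants, against 12.22, 11.93, 12.09 and 12.35 in controls. The inter-alpha-trypsin inhibitor heavy chain gene itih3a.1, whose product binds hyaluronan, fell by 3.32 ± 0.49 (adjusted p = 0.0015). By contrast serpina1l, an alpha-1-antitrypsin relative and one of the brightest hepatic genes, stood at 12.78, 12.78 and 12.41 in mutants, against 13.51, 13.51, 13.47 and 13.48 in controls. That difference of -0.84 ± 0.09 was small in size and among the best resolved (adjusted p = 0.00018).

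Of 15 coagulation genes 7 were lower, 4 were within 2-fold and 4 were unresolved. Factor VII starts the extrinsic pathway, and the 3 genes of its family in the list fell. The level of f7i was 6.84, 7.39 and 5.76 in mutants, against 11.08, 10.52, 10.45 and 10.73 in controls, a 16.4-fold difference (-4.03 ± 0.33, adjusted p = 3.1e-05), and f7 and f7l fell by 2.80 ± 0.37 and 1.96 ± 0.33. Kininogen, kng1, the precursor of bradykinin, was 4.60-fold lower (adjusted p = 0.00088), and antiplasmin, serpinf2a, which limits the breakdown of clots, fell by 1.23 ± 0.26. The clot itself is built from 3 fibrinogen chains, and those of 2 genes were within 2-fold. Levels of fgb were 11.75, 12.23 and 11.44 in mutants, against 12.18, 12.03, 12.31 and 12.12 in controls, and those of fgg were 12.36, 12.65 and 11.80 in mutants, against 12.68, 12.42, 12.57 and 12.66 in controls. Their differences of -0.35 ± 0.16 and -0.31 ± 0.16 were not called (adjusted p = 0.19 and 0.26), and the groups overlapped. The remaining chain, fga, was unresolved, at 10.96, 11.42 and 10.16 in mutants, against 11.41, 11.12, 11.83 and 11.43 in controls (-0.60 ± 0.26); it was added after its values were seen. Antithrombin, serpinc1, which inactivates thrombin, differed by -0.53 ± 0.20 and was also within 2-fold.

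Of 19 complement genes 10 were lower, 1 was within 2-fold and 8 were unresolved, with a median difference of -1.86. The lectin pathway protease gene masp2 stood at 6.52, 5.98 and 4.87 in mutants, against 9.77, 10.12, 9.14 and 9.95 in controls (-3.96 ± 0.36, adjusted p = 6.4e-05). Its substrate c4b was at 6.90, 7.40 and 5.61 in mutants, against 9.86, 9.80, 9.19 and 9.93 in controls. Factor B of the alternative pathway, bfb, fell (adjusted p = 0.00019) to 4.18, 4.57 and 3.91 in mutants, against 6.67 to 7.81 in controls. Its levels in mutants 3 and 6 lay under the 10th percentile of their arrays, and with such levels set at that percentile the difference was -2.71. The complement component gene c3a.6 fell by 2.61 ± 0.43. All 4 of these genes were below the control range on every mutant array, as were 1003 of all 7792 named genes. The member within 2-fold, c1qc, which macrophages make, was dim in both groups, at 5.16 to 5.59 in mutants and 5.09 to 5.70 in controls.

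**Figure D2:**
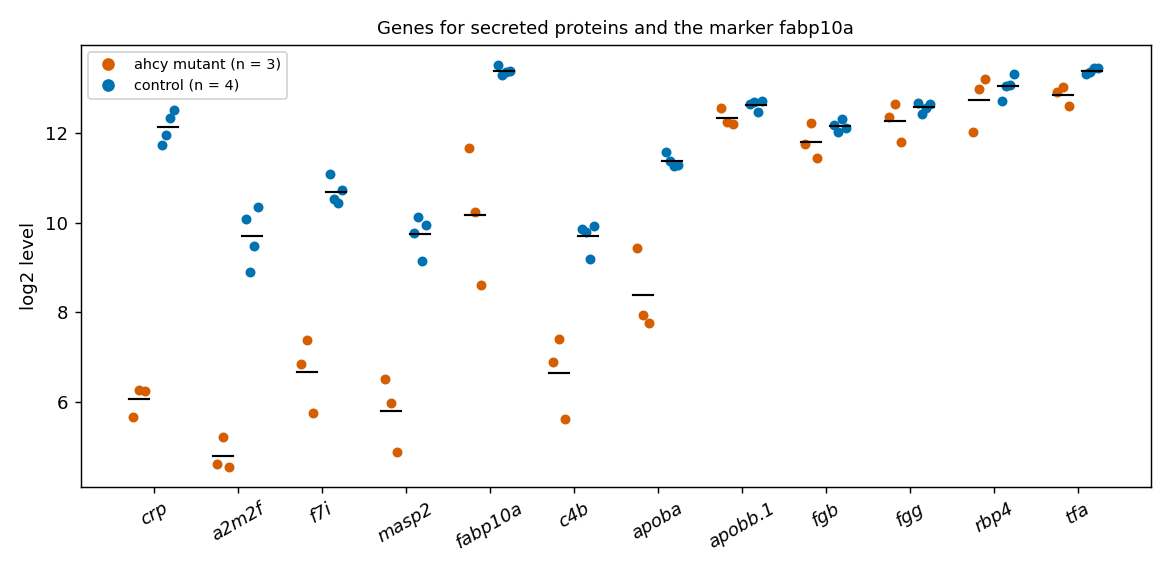
Log2 levels on each array of 12 genes, which are genes for secreted proteins and the marker fabp10a. Mutants (orange) stand left of controls (blue) for each gene, with a bar at each group mean. The groups are far apart for crp, a2m2f, f7i and masp2 and overlap for fgb, fgg and rbp4; fabp10a, shown as the hepatocyte marker, spreads from 8.60 to 11.66 among the mutants.

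Of 23 lipoprotein genes 6 were lower, 1 was higher, 6 were within 2-fold and 10 were unresolved. Apolipoprotein B is the structural protein of very low density lipoprotein, and 2 of its genes were measured. The level of apoba was 9.44, 7.95 and 7.77 in mutants, against 11.58, 11.39, 11.27 and 11.29 in controls, a 7.98-fold difference (adjusted p = 0.0008). That of apobb.1 was 12.56, 12.25 and 12.21 in mutants, against 12.65, 12.70, 12.47 and 12.71 in controls (-0.29 ± 0.15), within 2-fold. This pair was set side by side after its values were seen, and the difference between its members was not tested. Apolipoprotein M, apom, a carrier of sphingosine 1-phosphate, fell by 2.19 ± 0.29, while apoa4b.1 differed by -0.20 ± 0.13. The gene apoa4b.1 is also among the 21 intestine markers. Their mean level was 8.03, 7.18 and 7.27 in mutants, against 6.74, 8.01, 7.62 and 7.43 in controls. The part of intestine in the apoa4b.1 level was not tested. Lipoprotein lipase, lpla, which releases fatty acids from circulating particles, stood at 7.96, 8.20 and 7.58 in mutants, against 10.48, 10.04, 10.15 and 9.60 in controls.

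In amino acid breakdown, 5 of 6 genes for tryptophan were lower. The entry enzyme tdo2a was at 6.03, 5.32 and 4.85 in mutants, against 9.76, 10.36, 10.46 and 11.49 in controls. A later step of the kynurenine pathway, kmo, was at 6.28, 6.09 and 5.13 in mutants, a mean of 5.83 ± 0.62 (SD, n = 3), against 8.58 ± 0.39 (SD, n = 4) in controls. Another of the 5, kyat1, differed by -1.24 ± 0.30, but its dimmer probe set differed by 0.84, so its direction rests on the brighter one. For phenylalanine and tyrosine 7 of 12 were lower. Homogentisate dioxygenase, hgd, which opens the aromatic ring, had levels of 9.09, 8.06 and 8.63 in mutants, against 11.01, 11.24, 10.55 and 10.78 in controls (-2.30 ± 0.25, adjusted p = 0.0002). The count for this branch was 3 without control 1 and 4 without control 2 or control 8.

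Glycine, serine, proline, histidine and lysine metabolism had 11 of 20 genes lower and 1 within 2-fold. Glyoxylate is cleared by the peroxisomal aminotransferase agxta, and this gene stood at 8.94, 9.21 and 6.42 in mutants, against a mean of 11.78 ± 0.21 (SD, n = 4) in controls. Glyoxylate also arises from hydroxyproline through hoga1, which was at 6.56, 7.37 and 5.67 in mutants, against 10.35, 10.08, 9.71 and 9.65 in controls. Another gene of glyoxylate metabolism, hao1, which forms it from glycolate, fell by 2.23 ± 0.37 (adjusted p = 0.0029). The gene rida, whose enzyme clears reactive imines from amino acid breakdown, was in none of the lists. It had 8.48, 8.24 and 8.13 in mutants, against 12.60, 12.68, 12.41 and 12.48 in controls. At 19.1-fold (-4.26 ± 0.16, adjusted p = 3.6e-08) its fall was among the best resolved on the array, and its 3 mutant arrays lay close together.

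Of 21 genes for the breakdown of branched-chain amino acids and propionate 7 were lower, 7 within 2-fold and 7 unresolved, and the count lower was 3 without mutant 3, mutant 6 or control 2 and 4 without control 1, control 8 or azacytidine array 2. The leucine enzyme mccc2 stood at 9.58, 9.71 and 9.92 in mutants, against 10.75, 11.03, 11.05 and 11.34 in controls. Mutant 6 was the lowest mutant for 2 of the 7 genes called lower in this list, against 124 of the 166 in all hepatic lists. The valine enzyme aldh6a1 had 12.11, 12.29 and 12.11 in mutants, against 12.40, 12.39, 12.43 and 12.39 in controls, a difference of -0.23 ± 0.09 that was not called (adjusted p = 0.14).

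Of 15 genes for nitrogen handling 2 were lower, 3 within 2-fold and 10 unresolved, with a median difference of 0.02. Glutamate dehydrogenase glud1b, which releases ammonia from glutamate, stood at 12.93, 12.65 and 12.36 in mutants, against 12.61, 12.84, 12.87 and 12.90 in controls. The genes of mitochondrial aspartate aminotransferase, which moves nitrogen between glutamate and aspartate, divided: got2a fell by 1.46 ± 0.23 (adjusted p = 0.002) and got2b differed by 0.02 ± 0.18. Their values per array were 9.89, 9.57 and 9.41 in mutants, against 10.66, 11.33, 10.92 and 11.44 in controls, for got2a, and 11.57, 11.23 and 10.94 in mutants, against a mean of 11.23 ± 0.12 (SD, n = 4) in controls, for got2b.

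The methionine cycle is the pathway that ahcy belongs to. Of 25 genes for the cycle and for methyl transfer to small molecules 6 were lower, 7 were within 2-fold and 12 were unresolved. Glycine N-methyltransferase, gnmt, which uses up surplus S-adenosylmethionine in liver, stood at 8.47, 8.52 and 7.86 in mutants, against 10.31, 10.52, 10.96 and 11.33 in controls (-2.50 ± 0.26, adjusted p = 0.00015). Guanidinoacetate methyltransferase, gamt, the last step of creatine synthesis and a large consumer of methyl groups, was at 11.95, 10.29 and 10.77 in mutants, against 12.97, 12.99, 12.78 and 12.91 in controls. Methionine synthase, mtr, which remakes methionine from homocysteine with a folate methyl group, fell by 1.39 ± 0.25. Betaine-homocysteine methyltransferase, bhmt, the other enzyme for that step, was near the top of the scale at 13.75, 13.45 and 13.08 in mutants, against 13.64, 13.96, 13.87 and 13.93 in controls, and was within 2-fold by this probe set. The dimmer bhmt probe set differed by -1.65, so the probe sets disagree on its size.

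Peroxisomal genes had 11 of 20 lower and 4 within 2-fold. Phytanoyl-CoA hydroxylase, phyh, which starts the breakdown of branched fatty acids, stood at 6.68, 6.80 and 6.39 in mutants, against 9.45, 9.70, 9.34 and 9.92 in controls (-2.98 ± 0.23, adjusted p = 2.5e-05). The import factor pex3, needed to form the organelle's membrane, was at 7.43, 8.22 and 7.35 in mutants, against 9.97, 9.66, 9.55 and 9.85 in controls. The fatty acyl-CoA synthetase slc27a2a, which also prepares bile acids, fell by 3.69 ± 0.50. Catalase, cat, the peroxide-degrading enzyme of the organelle, was not called. It was at 11.29, 11.55 and 11.48 in mutants, against 11.58, 11.84, 11.70 and 11.89 in controls. These mutant levels were all below the control range, as for 1003 of 7792 named genes. The cat difference of -0.31 ± 0.21 lay within 2-fold.

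Fatty acid oxidation had 16 of 31 genes lower and 2 within 2-fold. The bifunctional peroxisomal enzymes ehhadh and hsd17b4 fell by 2.23 ± 0.31 and 2.26 ± 0.25, although a dimmer hsd17b4 probe set differed by -0.18. In mitochondria cpt2, which completes the transfer of fatty acids across the inner membrane, was at 5.52, 6.23 and 6.04 in mutants, against 7.96, 7.95, 7.70 and 7.90 in controls. Both members within 2-fold handle hydroxyacyl-CoA: hadh differed by -0.39 ± 0.13 and hadhab by -0.11 ± 0.25.

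Of 49 genes for sugar metabolism 13 were lower, 3 higher, 14 within 2-fold and 19 unresolved, with a median difference of 0.04. Pyruvate kinase of liver, pklr, stood at 7.98, 6.25 and 6.14 in mutants, against 10.97, 10.65, 11.35 and 11.01 in controls, an 18.4-fold difference (adjusted p = 0.00015). Lactate dehydrogenase B, ldhbb, which interconverts lactate and pyruvate, was at 4.61, 4.67 and 5.45 in mutants, against 7.29, 9.21, 8.63 and 8.03 in controls (-3.38 ± 0.42, adjusted p = 0.00048). The groups did not overlap for either gene, as for 24.4% of all named genes. Phosphoglucomutase, pgm1, which links glucose 6-phosphate with glycogen, was at 10.20, 10.03 and 9.37 in mutants, against 12.11, 11.88, 12.19 and 12.34 in controls, a difference of -2.26, and a dimmer pgm1 probe set differed by -3.37. The transporter slc37a4a, which carries glucose 6-phosphate into the endoplasmic reticulum for glucose release, was at 8.88, 9.21 and 8.51 in mutants, against 10.22, 10.58, 11.45 and 11.57 in controls, a difference of -2.09, and a dimmer slc37a4a probe set differed by -0.91. The glucose transporter of hepatocytes, slc2a2, was below the 10th percentile of all 3 mutant arrays; with such levels set at that percentile its difference of -3.20 became -0.74. The glycolytic enzyme genes tpi1b and eno3 fell by 0.85 ± 0.10 and 0.81 ± 0.12, and eno3 is also among the skeletal muscle markers. Those higher were aldoab, fbp1a and pfkma, of which aldoab and pfkma are muscle forms, and all 3 calls were lost without mutant 4 (adjusted p = 0.0878, 0.0757 and 0.0636 for aldoab, fbp1a and pfkma) or mutant 6 (adjusted p = 0.108, 0.139 and 0.182). The aldoab call was also lost without control 1 (adjusted p = 0.0731) or control 2 (0.0651), and that of fbp1a without control 4 (0.0589) or control 8 (0.0672). The pfkma call was also lost without mutant 3 (adjusted p = 0.0537), control 1 (0.108), control 2 (0.0884) or azacytidine array 2, 5 or 6 (0.0537 to 0.0583). The count lower was 8 without control 1.

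Of 31 genes for fat synthesis and storage 6 were lower, 3 higher and 11 within 2-fold. The cytosolic malic enzyme gene me1, a source of NADPH for fatty acid synthesis, had levels of 4.94, 5.54 and 4.98 in mutants, against 9.95, 9.36, 9.63 and 9.88 in controls (-4.55 ± 0.37, adjusted p = 3.2e-05). Another source of NADPH, the pentose phosphate enzyme pgd, was higher, at 10.39, 9.32 and 9.48 in mutants, against 7.83, 8.92, 8.48 and 8.20 in controls (1.37 ± 0.33, adjusted p = 0.02). This call was lost without mutant 3 (adjusted p = 0.0655) and without control 1 (adjusted p = 0.0551). Transketolase, tktb, of the same pathway was within 2-fold (0.32 ± 0.17). The acylglycerol synthesis gene mogat3a fell by 2.33 ± 0.30. Of 16 genes for cholesterol synthesis and handling 2 were lower: fdx1, the ferredoxin of mitochondrial cytochromes P450, fell by 1.51 ± 0.16, and hmgcs1, an early enzyme of the pathway, by 1.65 ± 0.39, a call lost without mutant 6 (adjusted p = 0.0883) or control 2 (adjusted p = 0.0529).

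Bile acid genes had 7 of 17 lower, 1 higher, 1 within 2-fold and 8 unresolved. The sterol enzyme hsd3b7, which acts early in bile acid synthesis, stood at 6.17, 6.15 and 5.96 in mutants, against 9.71, 9.27, 8.40 and 8.61 in controls (-2.90 ± 0.32, adjusted p = 0.00019). The organic anion transporter slco1d1 was at 10.05, 10.09 and 8.01 in mutants, against 11.55, 11.57, 11.65 and 11.54 in controls. The sterol carrier scp2a fell by 1.47 ± 0.27. The member called higher, ch25hl1.1, a cholesterol 25-hydroxylase relative, makes an oxysterol rather than a bile acid.

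Of 39 cytochrome P450 genes 13 were lower, 2 were higher and 16 were within 2-fold, but 12 of those 16 were dim in controls. The xenobiotic enzyme cyp1a stood at 10.13, 10.19 and 8.14 in mutants, against 11.29, 12.39, 12.07 and 12.62 in controls. The fatty acid hydroxylase gene cyp4v2b was at 7.11, 6.42 and 6.24 in mutants, against 8.49, 8.68, 8.46 and 9.20 in controls. The count lower was 7 without mutant 4 and 8 without mutant 6. Conjugation and related enzymes had 15 of 37 lower. The carboxylesterase ces2a, which hydrolyses ester drugs and lipids, was at 7.44, 8.99 and 6.88 in mutants, against 11.62, 11.22, 11.95 and 11.81 in controls (-3.88 ± 0.40, adjusted p = 0.00015), although a dimmer ces2a probe set differed by -1.10. The oxidative stress enzyme nqo1 (0.46 ± 0.22) and the glutathione transferase gstp1.2 (0.10 ± 0.20) were within 2-fold at bright levels.

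Retinol and steroid dehydrogenases had 9 of 37 lower, 1 higher, 10 within 2-fold and 17 unresolved. The gene dhrs9, an oxidiser of retinol, was at 8.44, 8.71 and 8.31 in mutants, against 11.06, 11.02, 10.95 and 11.51 in controls (-2.65 ± 0.20, adjusted p = 2.4e-05). The retinol dehydrogenase gene rdh1 fell by 3.85 ± 0.59, and srd5a2a, a steroid 5-alpha-reductase, by 3.06 ± 0.35. Among the P450 genes the retinoic acid hydroxylase cyp26a1 was higher, at 6.57, 8.28 and 8.36 in mutants, against 4.31, 6.81, 6.22 and 5.56 in controls. Its call (adjusted p = 0.033) was lost without mutant 4 (adjusted p = 0.116), mutant 6 (0.134), control 1 (0.0643) or control 8 (0.0653). The retinoic acid receptor gene rarga was also higher, at 7.44, 7.78 and 7.63 in mutants, against 5.44, 5.71, 6.78 and 5.30 in controls (1.81 ± 0.31, adjusted p = 0.0036).

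**Figure D3:**
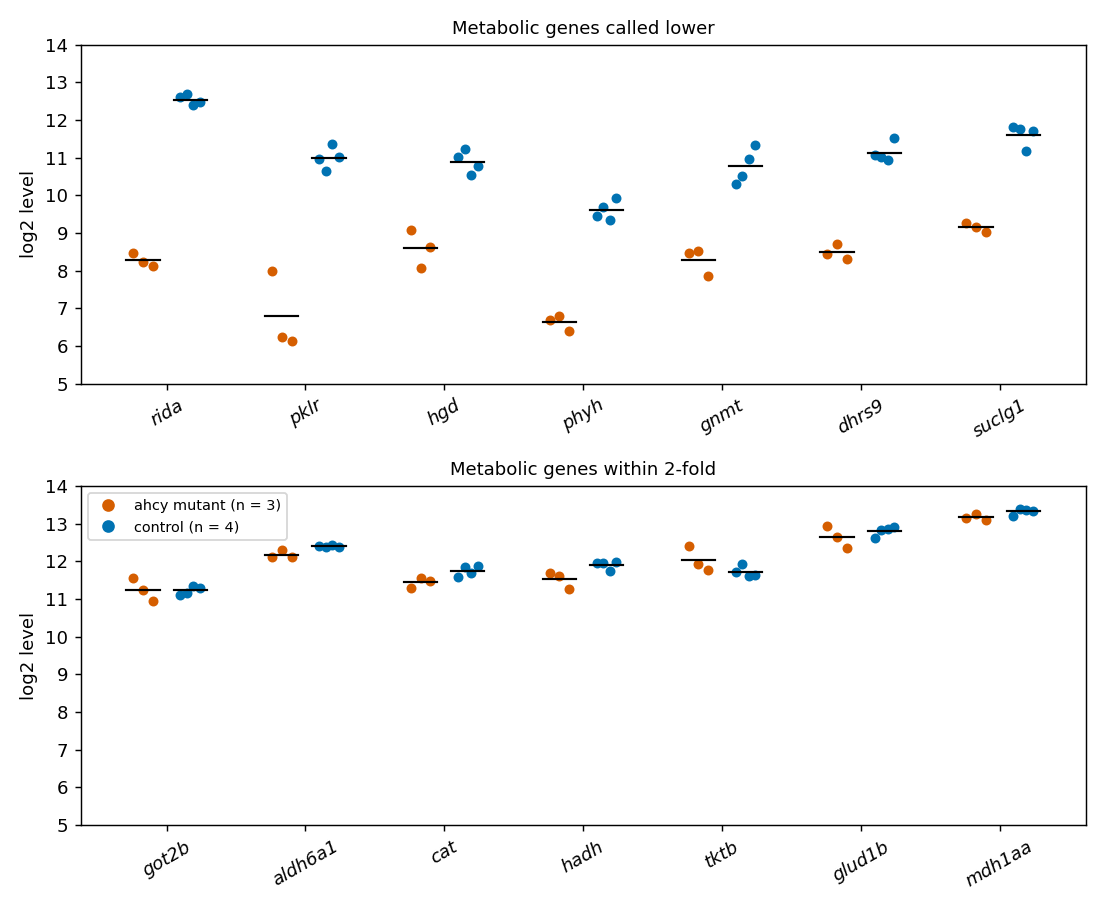
Log2 levels on each array of 14 genes for metabolic enzymes, with mutants (orange) left of controls (blue) for each gene and a bar at each group mean. The upper row holds genes called lower, from rida at 8.13 to 8.48 in mutants and 12.41 to 12.68 in controls; the lower row holds genes within 2-fold, whose groups lie close together.

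Iron and heme genes had 5 of 22 lower and 2 higher. Ceruloplasmin, cp, a copper protein that oxidises iron, was at 9.11, 8.69 and 7.61 in mutants, against 10.29, 9.81, 9.81 and 11.37 in controls, a call (-1.85 ± 0.41, adjusted p = 0.013) lost without mutant 6 (adjusted p = 0.0544). The ferritin-like gene fthl28 was higher and stood at 11.47, 10.32 and 12.04 in mutants, against 9.04, 7.82, 9.17 and 9.40 in controls (2.42 ± 0.50, adjusted p = 0.0091). Its relative fthl27 was at 12.98, 12.75 and 13.06 in mutants, against 11.88, 12.43, 12.27 and 12.21 in controls. The ferritin heavy chain gene fth1a, the iron-storage subunit, was within 2-fold at 0.25 ± 0.09.

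Insulin-like growth factor genes had 5 of 16 lower and 5 within 2-fold. The binding protein genes igfbp1b and igfbp2a, whose products hold growth factor in plasma, fell by 4.71 ± 0.48 and 1.08 ± 0.12. Levels of igfbp2a were 11.02, 11.22 and 10.79 in mutants, against 12.04, 11.97, 12.14 and 12.20 in controls. The gene igfbp3 was within 2-fold at 0.12 ± 0.33.

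The 122 solute carrier genes, which move nutrients and ions across membranes, had 14 lower, 4 higher, 36 within 2-fold and 68 unresolved, and their median difference was 0.09. The count lower was 6 without mutant 6 and 9 without control 2.

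Of 36 liver transcription factors and nuclear receptors 6 were lower, 2 higher, 10 within 2-fold and 18 unresolved, and the count lower was 3 without mutant 4, mutant 6 or control 1. The pioneer factor foxa1, which opens chromatin in endoderm, was at 7.97, 7.52 and 6.98 in mutants, against 8.92 to 9.82 in controls (-1.82 ± 0.29, adjusted p = 0.0026). The oxysterol receptor nr1h3 was at 6.17, 6.46 and 5.90 in mutants, against 7.99, 7.86, 7.54 and 8.13 in controls. The orphan receptor nr5a5 fell by 2.83, or by 1.82 with levels under the 10th percentile set at that percentile. The hepatocyte nuclear factor genes hnf4b and hnf4a fell by 1.43 ± 0.35 and 0.93 ± 0.27, and both calls were lost without mutant 4 (adjusted p = 0.0757 and 0.118) or mutant 6 (adjusted p = 0.0985 and 0.173), control 1 (adjusted p = 0.0551 and 0.0975) or control 2 (adjusted p = 0.0596 and 0.0603). The hnf4a call was also lost without control 8 (adjusted p = 0.0883) or any azacytidine array (0.0505 to 0.0621). A second hnf4a probe set differed by 0.18. The factors cebpa and cebpb, which drive many plasma protein genes in mammals, were within 2-fold. Levels of cebpa were 9.94, 10.47 and 10.11 in mutants, against 9.63, 9.96, 9.78 and 9.94 in controls, and cebpb differed by 0.05 ± 0.20.

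Of 33 genes for folding and stress in the endoplasmic reticulum 10 were lower and 11 were within 2-fold; the count was 5 without mutant 6 or control 2. The main chaperone hspa5 (BiP) was at 9.86, 9.88 and 9.41 in mutants, against 11.03, 11.54, 12.01 and 11.08 in controls (-1.70 ± 0.24, adjusted p = 0.0011). Its co-chaperone dnajc3a was at 6.24, 7.20 and 6.72 in mutants, against 9.36, 9.93, 10.10 and 8.73 in controls, and the secreted stress factor manf fell by 2.13 ± 0.33, although a dimmer manf probe set differed by -0.55. All 3 genes are targets of the unfolded protein response in mammals, and control 4 was the highest control for each. Calnexin, canx, which folds glycoproteins, was within 2-fold (-0.31 ± 0.20).

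Genes for translocation and vesicle coats had 10 of 53 lower, 1 higher and 29 within 2-fold. The channel subunit sec61a1b was at 6.21, 6.98 and 6.72 in mutants, against 7.85, 8.96, 9.70 and 8.63 in controls. The oligosaccharyltransferase subunit ostc was at 9.78, 9.97 and 9.59 in mutants, against 11.03, 11.01, 11.30 and 11.30 in controls (-1.38 ± 0.16, adjusted p = 0.00035). Another subunit of that enzyme, rpn2, differed by 0.01 ± 0.16.

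Of 92 respiratory chain genes 27 were lower and 51 were within 2-fold, with a median difference of -0.43. The count lower was 10 without mutant 6, 12 without control 2 and 16 without control 1 or control 8. The complex I gene ndufb9 was at 9.07, 9.62 and 9.94 in mutants, against a mean of 11.07 ± 0.08 (SD, n = 4) in controls (-1.53 ± 0.23, adjusted p = 0.0015), and ndufa2 fell by 0.74 ± 0.12. The cytochrome oxidase subunit cox6b2 and the ATP synthase subunit atp5f1c were within 2-fold, at 0.03 ± 0.09 and -0.15 ± 0.09. Of 77 genes for the mitochondrial ribosome and protein import 20 were lower, with a median of -0.80. This count was 6 without mutant 6, 12 without mutant 4, 11 without control 1 or control 2, and 32 without azacytidine array 6.

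Of 24 citrate cycle genes 3 were lower, 1 was higher and 15 (62.5%) were within 2-fold, 12 of them above the middle of the control arrays. The gene mdh1aa, which encodes the cytosolic form of malate dehydrogenase, stood at 13.16, 13.26 and 13.11 in mutants, against 13.21, 13.40, 13.37 and 13.33 in controls. The succinate dehydrogenase subunit sdhc differed by -0.10 ± 0.13. The exceptions were the subunits of succinyl-CoA ligase, which makes GTP or ATP from succinyl-CoA. Levels of suclg1 were 9.26, 9.16 and 9.02 in mutants, against 11.80, 11.75, 11.17 and 11.70 in controls (-2.46 ± 0.21, adjusted p = 4.5e-05), and suclg2 fell by 1.89 ± 0.38. The other gene called lower was sdhdb, another succinate dehydrogenase subunit, with a fall of 1.67 ± 0.33. The gene called higher was idh2, mitochondrial isocitrate dehydrogenase, whose call was lost without mutant 4 (adjusted p = 0.0662) or mutant 6 (adjusted p = 0.0762).

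Of 72 cytosolic ribosomal protein genes 68 (94.4%) were within 2-fold, 1 was lower and 2 were higher, as against 46.8% of all named genes within 2-fold. Levels of rps2 were 13.56, 13.53 and 13.51 in mutants, against 13.57, 13.49, 13.48 and 13.58 in controls, and its interval ran from -0.11 to 0.12. Ribosomal protein genes averaged 12.66, 12.82 and 12.77 in mutants, against 12.82, 12.84, 12.82 and 12.80 in controls over all 72, near the top of the scale. Among the 43 hepatic genes as bright in controls, at 12 or above, 31 were called lower and 10 were within 2-fold, with a median difference of -0.87. A call does not mean a fall of more than 2-fold: tfa and serpina1l, both called, fell by 0.55 and 0.84. Below that range, 35 of 50 proteasome genes, 51 of 85 translation factors and tRNA synthetases and 42 of 76 splicing genes were within 2-fold, with 3, 2 and 1 lower. The initiation factor eif3f was at 11.49, 11.66 and 11.86 in mutants, against 11.77, 11.58, 11.61 and 11.78 in controls, and the proteasome subunit psmb7 differed by 0.08 ± 0.14.

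None of 56 genes for replication and cell division was called by limma, where 2 were higher and 3 lower at an unadjusted p under 0.05. Of these genes 34 were within 2-fold, although 18 of them were dim in controls, among them the licensing factor cdc6 (0.42 ± 0.20) and the replication polymerase subunit pole2 (0.01 ± 0.17). None of 34 genes for DNA methylation and chromatin was called by limma either, where 2 were higher and 2 lower at an unadjusted p under 0.05, and 19 were within 2-fold. The arginine methyltransferase prmt1, which uses S-adenosylmethionine, stood at 10.72, 10.95 and 10.87 in mutants, against 10.51, 10.72, 11.36 and 10.86 in controls. Antioxidant genes had 5 of 28 lower and 12 within 2-fold, with gpx4a, a guard against lipid peroxides, at 12.48, 12.25 and 12.07 in mutants, against 12.78, 12.99, 12.69 and 13.09 in controls.

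**Figure D4:**
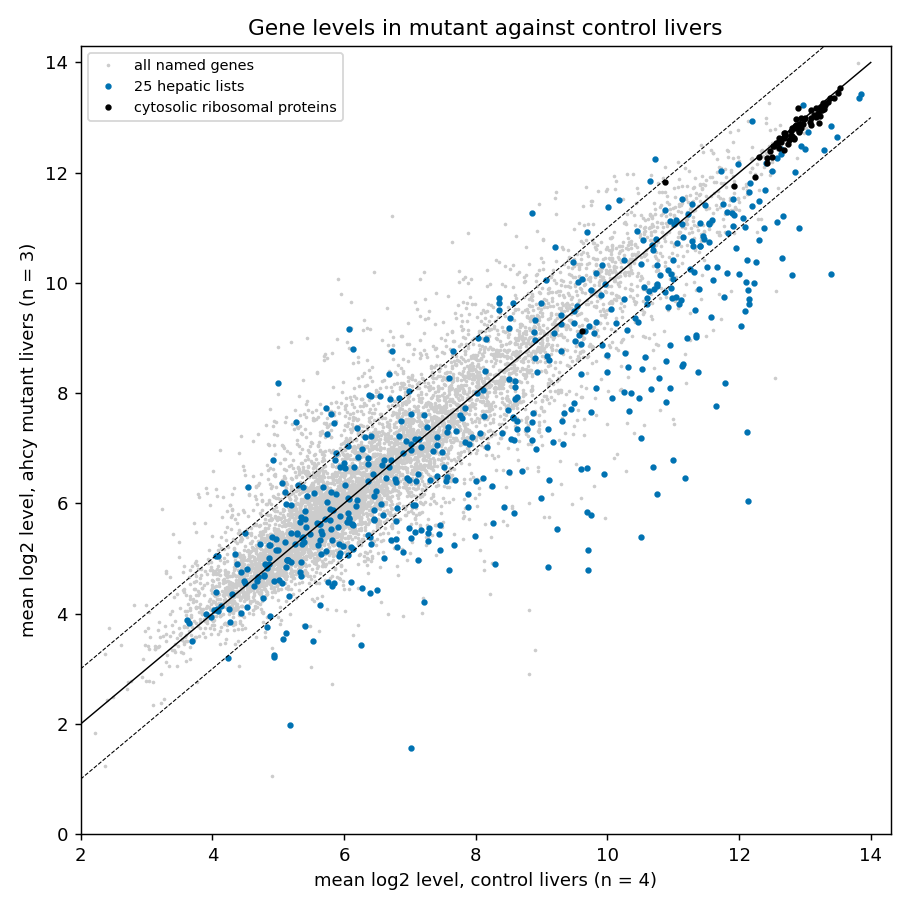
Mean log2 level in mutants (vertical axis) against mean log2 level in controls (horizontal axis) for all named genes (small grey points), genes of the 25 hepatic lists (blue) and cytosolic ribosomal proteins (black); the solid line is equality and the dashed lines are 1 log2 unit away. The median difference of the hepatic genes ran from -0.41 for control levels of 6.04 to 8 to -0.87 for those of 10 to 12, while 68 of 72 ribosomal protein genes lay within 2-fold.

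Of 35 genes linked to p53 and DNA damage 4 were higher, with a median of 0.45. The p53 target rps27l was at 12.01, 11.94 and 11.53 in mutants, against a mean of 10.88 ± 0.27 (SD, n = 4) in controls (0.95 ± 0.18, adjusted p = 0.005). It is also counted among the cytosolic ribosomal protein genes, where its difference was the largest. A second p53 target, ccng1, was at 10.92, 11.64 and 10.65 in mutants, against 10.02, 9.59, 9.94 and 9.57 in controls, a call lost without mutant 4 (adjusted p = 0.0587). The others were gadd45ba and gadd45bb, growth arrest genes, lost without mutant 4 (adjusted p = 0.0956 and 0.069) or mutant 6 (adjusted p = 0.0868 and 0.144). The gadd45ba call was also lost without control 2 (adjusted p = 0.0577), and that of gadd45bb without control 1 (0.0865), control 2 (0.0856) or control 4 (0.0516).

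Of 24 genes of inflammation 6 were higher and 1 lower, against 3 higher without mutant 6. The inflammasome adaptor pycard was at 7.29, 9.53 and 10.14 in mutants, against 6.17, 5.70, 6.02 and 5.71 in controls, and the caspase gene caspb, its partner in zebrafish, was at 7.01, 6.74 and 7.28 in mutants, against 4.68, 4.62, 5.55 and 5.51 in controls (1.92 ± 0.40, adjusted p = 0.01). The chemokine gene ccl19a.1 was the one called lower, at 5.13, 4.69 and 4.92 in mutants, against 8.69, 8.78, 7.79 and 7.72 in controls. Both pycard and caspb are also expressed in skin. Means of the epidermal markers were 8.29 to 9.43 in mutants and 7.15 to 7.60 in controls. The part of skin in these calls was not tested and cannot be told apart from the genotype here. Interferon response genes gave 1 call over 11 genes, gbp1, a guanylate-binding protein (3.84 ± 0.61, adjusted p = 0.0022), and antigen presentation genes 1 call over 17. Both calls were higher in mutants, at 9.09% and 5.88% of these lists. Those shares were near that over all named genes, of which 6.48% were called higher.

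Of 24 leukocyte markers 4 were higher and 1 lower, with a median difference of 0.57. Myeloperoxidase, mpx, the enzyme of neutrophil granules, was the one lower, at 7.47, 7.61 and 5.38 in mutants, against 9.65, 10.69, 10.08 and 10.01 in controls (-3.29 ± 0.55, adjusted p = 0.0031). A dimmer mpx probe set differed by 1.14, so the direction rests on the brighter one. The chemokine receptor gene cxcr4b was higher, at 4.95, 6.78 and 6.76 in mutants, against 4.35, 3.30, 3.67 and 3.82 in controls, and the defining markers ptprc and lcp1 were dim, at 4.72 to 6.37 in mutants and 4.37 to 5.27 in controls. Of 14 biliary markers 3 were higher, 2 within 2-fold and 9 unresolved, with a median difference of 0.60. Of the pair within 2-fold, krt18a.1, a keratin of bile duct cells, differed by -0.04 ± 0.22 and sox9b, a duct factor, by 0.16 ± 0.28. Another defining biliary marker, anxa4, stood at 11.57, 11.57 and 10.97 in mutants, against 12.28, 11.79, 11.65 and 12.06 in controls. Its mutant levels were all below the control range, as for 1003 of all 7792 named genes.

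Of 505 named genes called higher, 488 stood outside the hepatic lists, and 319 of these were highest in mutant 6. Skeletal muscle markers had 24 of 50 higher (11 without mutant 6) and 2 lower, among them eno3. Epidermal markers had 27 of 45 higher (11 without mutant 6, 15 without mutant 4 or control 1, 14 without control 2). Genes of cartilage, bone and matrix had 15 of 30 higher (2 without mutant 6, 4 without mutant 4, 8 without control 1). The myogenic factor myog was at 10.13, 9.24 and 9.62 in mutants, against 5.16, 6.45, 6.51 and 6.29 in controls, and the gene of the muscle actin-binding protein xirp1 was at 6.18, 7.11 and 6.50 in mutants, against 3.93, 3.81, 3.96 and 4.34 in controls. The tight junction gene cldne was at 8.79, 9.13 and 9.65 in mutants, against 6.55, 5.94, 6.60 and 6.28 in controls, and the keratin gene krt4 was at 8.97, 9.83 and 10.33 in mutants, against 7.39, 7.07, 7.04 and 7.45 in controls. The creatine kinase gene ckma, a defining marker of muscle, stood at 12.23 to 12.57 in mutants and 10.83 to 11.84 in controls and was not called (0.83, adjusted p = 0.0552). These markers were present in controls too, and the share of tissue in each dissection was not measured.

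**Figure D5:**
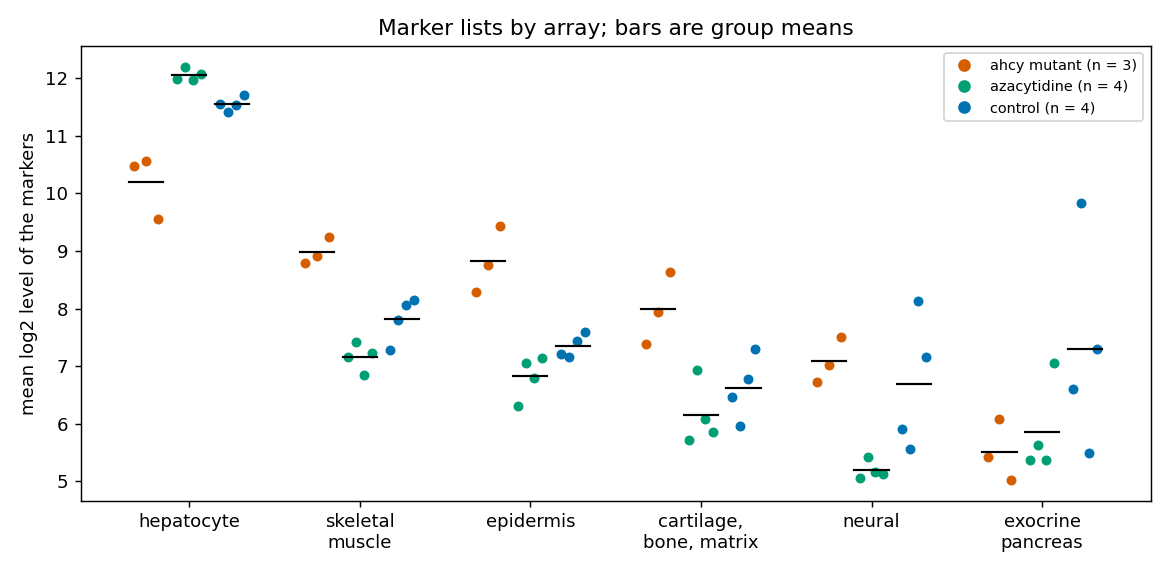
Mean log2 level per array over the markers of hepatocytes, skeletal muscle, epidermis, cartilage and matrix, neural tissue and exocrine pancreas, with mutants (orange), azacytidine livers (green) and controls (blue) from left to right. Hepatocyte markers averaged 9.55 to 10.57 in mutants and 11.40 to 11.70 in controls. Epidermal markers averaged 8.29 to 9.43 in mutants and 7.15 to 7.60 in controls. Control 2 is the highest array for pancreas and control 4 for neural tissue, though neither tissue is confined to that array.

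The 3 mutant livers differed among themselves, with mutant 6 lowest for most hepatic genes called lower. Of these 166 genes, mutant 6 was the lowest mutant array for 124, mutant 4 for 23 and mutant 3 for 19. Among all named genes called lower, mutant 6 was the lowest for 335 of 559, and among respiratory chain genes for 11 of 27. The mean of the 25 merged hepatic lists was 7.72, 7.61 and 7.33 in mutants, against 8.17, 8.30, 8.13 and 8.27 in controls. Mutant 6 also had the highest epidermal, muscle and matrix means. The count of hepatic genes called lower was 125 without mutant 6 and 139 without mutant 4, and 135 to 168 without any other array.

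Adding the mean of the muscle, epidermal and neural markers of each array to the fit as a covariate left 31 of the 504 hepatic genes called lower. That mean was 7.94 to 8.73 in mutants and 6.81 to 7.87 in controls, higher on every mutant array than on any control array, so that this mean and the genotype cannot be told apart well. Hepatic genes still called lower with it included crp (-6.67), f7i (-3.49), masp2 (-3.11), phyh (-2.94), gnmt (-2.76), dhrs9 (-2.68) and pgm1 (-2.19). Outside the hepatic lists, rida (-4.12) and suclg1 (-2.06) were still called lower. For fabp10a the difference was -2.23 and for hspa5 -1.77, with adjusted p of 0.15 and 0.052. Genes that were not called shifted too. Of 42 such genes followed, 18 moved by at least their standard deviation among arrays in the main fit, and 24 did not. Those that moved included rbp4 (-0.31 to -0.88), canx (-0.31 to -0.63), nqo1 (0.46 to -0.04) and hadh (-0.39 to -0.15).

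Set against the azacytidine livers in the same fit, which uses no control array for the difference, mutants were lower for 224 of the 504 hepatic genes (44.4%) and higher for 53, where 13.1% and 17.4% of all named genes were lower and higher. The median hepatic difference was -0.65. This comparison used the same mutant arrays. The mean of the muscle, epidermal and neural markers was 7.94 to 8.73 in mutants and 6.18 to 6.63 in azacytidine livers. The part of other tissues in this comparison was not tested. The gene rida, outside the hepatic lists, was -4.01 ± 0.16 and f7i -4.16 ± 0.33 from azacytidine livers (adjusted p = 5.2e-08 and 1.2e-05). Plasma genes near control in mutants were lower than in azacytidine livers in part: fgb differed by -0.86 ± 0.16 (adjusted p = 0.0027) and rbp4 by -0.46 ± 0.23 (adjusted p = 0.15). Azacytidine livers averaged 11.96 to 12.20 over the hepatocyte markers, above both other groups.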

How the data were processed

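Whole-liver RNA from 11 samples was hybridised to 1-colour Affymetrix zebrafish arrays. Per the labels' protocols, livers were dissected with forceps at 4 days after fertilisation and RNA was amplified in 2 rounds. The deposited values are log2 expression levels made by the authors with GCRMA in Partek, per the submitters' processing notes; versions and settings are not given in the sources used here, and the number of arrays limits the precision. Control probe sets were left out, which left 12784. Groups follow the sample labels. The log2 values were used as deposited: limma 3.58.1 in R 4.3.3 was fitted to all 11 arrays with 3 group means, so that the groups share 1 estimate of the spread, with an intensity trend in the variance prior. P-values were adjusted by the Benjamini-Hochberg method over all probe sets and called at 0.05. Each gene was represented by its probe set of highest mean level.

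The comparison, members and gene lists were chosen with earlier results of these data known. Named genes are ahcy and its paralogs, the 15 largest called differences per direction without overlap, and in each list up to 6 called genes per direction by p-value and up to 4 within 2-fold by narrowest interval; the text names some of these, and others are stated as chosen after their values were seen. Lists were described by counts and medians and not tested. The fit was tested on simulated data. Same-numbered arrays did not deviate together (correlations of -0.21 to 0.03 over 4 pairs), and numbers were not used to pair samples in the main fit. Only the pair of control 4 and mutant 4 (0.03) joined a mutant to a control, so a shared clutch or batch is not excluded. Sequences and genome positions were not used here.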

Additional observations from a re-analysis of the deposited data

Results flagged for a closer look

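Dixon's test was run on 155 sets of 4 control values, which held genes and means of lists. In 8 of them, all genes, 1 control lay far from the other 3 at the 95% level. Chance gives about 1 in 20. Control 4 was the outlying array for c3a.6 (11.44, others 11.04 to 11.05), hadh (11.75, others 11.96 to 11.98), hnf4b (7.93, others 8.72 to 8.88) and suclg1 (11.17, others 11.70 to 11.80). Control 1 was low for the muscle genes myog (5.16, others 6.29 to 6.51) and ckma (10.83, others 11.79 to 11.84). Control 2 was low for ahcyl1 (8.37, others 9.05 to 9.09), and control 8 was high for igfbp3 (7.10, others 6.35 to 6.46). For c3a.6, hadh, hnf4b, suclg1, myog and ckma the outlying control stayed outside the mutant range on the side of the other controls, narrowly for hnf4b, whose highest mutant was at 7.92.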

How the results depend on the processing

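No gene named here as called changed sign in any setting tried, with kyat1 not followed through them. Some of those not called did, among them nqo1 with the muscle, epidermal and neural covariate. The counts of probe sets higher and lower (797 and 750) and of hepatic genes lower (166) stayed within 1.5 times under array centring, cyclic loess, quantile normalisation, both filters, the floor, averaged probe sets, robust or untrended variance priors and array weights. With a minimum difference of 1 log2 unit in the test they were 17, 105 and 41, and with the muscle, epidermal and neural covariate 13, 100 and 31. Fitting the 7 mutant and control arrays alone gave 497 higher, and leaving out controls 2 and 4 together gave 347 higher and 430 lower. Leaving out 1 array at a time gave 329 to 957 higher, 427 to 772 lower and 125 to 168 hepatic genes lower. With the replicate number as a fixed block the counts were 0, 9 and 3, in a fit that leaves few residual degrees of freedom; mutants and controls share only number 4, and as a random block the counts were 812, 752 and 166. Dim levels limit the size of a fall: with levels under an array's 10th percentile set at that percentile, the difference of slc2a2 was -0.74 in place of -3.20.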
